A study of Sus scrofa with 6 samples.

Results

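The 200 megabase windows described here carried the most methylated DNA fragments of any 1 Mb stretch of the pig autosomes that lies away from the chromosome ends. They were taken from 1588 interior windows, whose every base lies past the outer 15 Mb at both ends of its chromosome, among 2128 full windows of chromosomes 1 to 18. Fragments were assigned to windows by their midpoint, counts were scaled to the total fragments of each library, and the 200 interior windows with the highest mean over the 6 libraries were kept. The level of these windows is therefore what chose them, and it is given as a description without a test. Whether they differ by age, and how long their fragments are, played no part in the choice and was tested.

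DNA methylation in mammals is placed mainly on the cytosine of CpG dinucleotides, by DNA methyltransferases that copy the mark onto new strands at replication. Most CpG sites of the genome are methylated in adult tissue, while many CpG islands at promoters are not, so that a methylation-rich region is often one with many CpG sites outside such islands. In MeDIP-seq, sheared DNA is captured with an antibody against methylated cytosine and sequenced, and the count of a window rises with its methylation, with its CpG content and with the number of copies that the assembly holds as a single one. These cannot be told apart from the counts alone.

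The libraries came from longissimus dorsi, the long muscle of the back, of female Jinhua pigs, a Chinese breed. Young pigs (Young, 0.5 years old) were compared with middle-aged pigs (MA, 7 years old), with 3 animals per group and 1 library per animal. The labels name no treatment, and by the methods all pigs were kept and fed alike and fasted overnight before slaughter. The fragments show no expression, so the labelled tissue could not be checked against marker genes, and no input library was used here. The libraries held 34801285 to 44341673 fragments, of which 5520688 to 7123392 fell in the 200 windows. The median window among them held 23258.5 to 30106.5 fragments before scaling, depending on the library. Counting error was therefore small (a median SD of 0.0088 on the log2 scale) beside the spread between libraries of the same age group (0.041).

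The densest interior windows held a median of 26970 scaled fragments (quartiles 24636 and 31434), which was 2.42 times the median of the other 1388 interior windows. Their counts ran from 23004 to 250456. The 200 densest of the 540 windows reaching into the outer 15 Mb of a chromosome (the end windows) had a higher median, 40385. They were drawn from fewer windows than the 200 interior ones, so this difference does not describe the chromosome ends as a whole. The limit fell in a continuous range of values. Just inside it were the windows on chromosome 14 from 119000001 to 120000000 (23105 scaled fragments, with CNNM2, NEURL, NT5C2 and SH3PXD2A), on chromosome 3 from 29000001 to 30000000 (23017) and on chromosome 3 from 63000001 to 64000000 (23004). Just outside it were the windows on chromosome 15 from 28000001 to 29000000 (23003, with GLI2, a transcription factor of Hedgehog signalling), on chromosome 4 from 64000001 to 65000000 (22981) and on chromosome 4 from 100000001 to 101000000 (22971). Positions are those of Sscrofa9.2, the build of the deposited files, and the genes named in a window are those that a list of the study places there.

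The windows were spread unevenly over the chromosomes. Chromosome 12 had 14 of its 27 interior windows among the 200 (51.9%), chromosome 6 had 35 of 93 (37.6%), chromosome 10 had 11 of 36 (30.6%) and chromosome 3 had 27 of 93 (29.0%). Chromosomes 3, 6 and 7 together held 42.5% of the 200 windows and 18.4% of the interior windows. At the other extreme, chromosome 15 had 1 of 104 (0.962%), chromosome 13 had 2 of 115 (1.74%) and chromosome 1, the longest, had 8 of 265 (3.02%). The share also fell with the distance to the nearest chromosome end, from 26.7% of the interior windows that lay 15 to 20 Mb from it to 6.97% of those at 50 Mb or more. Distance and chromosome were not separated, since chromosomes 12 and 10, of 57.4 and 66.7 Mb, are too short for a window at 50 Mb or more. Both patterns are descriptions of where dense windows lie, without a test.

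**Figure D1:**
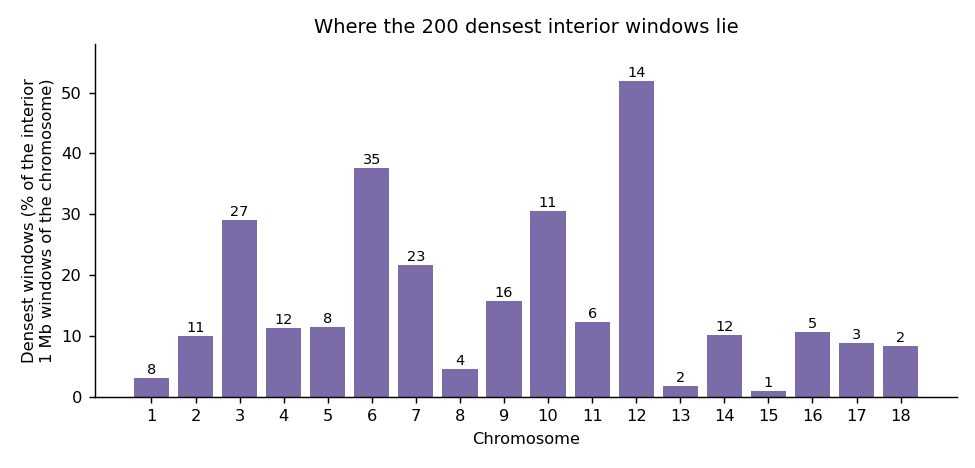
Share of the interior 1 Mb windows of each chromosome that belong to the 200 densest (y axis, percent), by chromosome (x axis), with the number of such windows above each bar. Chromosome 12 reached 51.9%, and chromosomes 13 and 15 stayed under 2%.

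Dense windows often adjoined each other. They formed 112 runs, of which 68 were single windows and 24 held 3 or more, and 132 of the 200 had another dense window next to them. The 186 interior windows that bordered on a run without belonging to it held a median of 17209 scaled fragments, against 10490 in the 1202 interior windows farther away.

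In the longest run, 8 windows of chromosome 6 from 32000001 to 40000000, the mean per window was 32918, 32943 and 29651 scaled fragments in MA 1, MA 2 and MA 3 and 30807, 32164 and 33115 in Young 1, Young 2 and Young 3. MA 3 and Young 1 were the lowest libraries of their groups, and the groups overlapped. The run contained FGF21, a metabolic hormone of the fibroblast growth factor family, HRC, a calcium-binding protein of the sarcoplasmic reticulum, and KCNA7, a voltage-gated potassium channel, all in 1 window of rank 16. It also contained SHANK1, a scaffold protein of synapses, DMBT1, a secreted scavenger receptor protein, and C19orf61.

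The run on chromosome 3 from 33000001 to 38000000 had 5 windows and the highest mean of the runs of that length, 44790.5 scaled fragments. It includes the windows of ranks 4 and 57, which are among the piled windows described below. The window of rank 4, at 78895, was the highest of the run and raised its mean. Its libraries were far apart, with 47939, 45998 and 35693 for MA against 41257, 48195 and 49662 for Young. MA 3 and Young 1 were again the lowest. A second run of 5 windows on chromosome 3, from 26000001 to 31000000, had nearly equal library means in place of that spread, from 31654 in MA 1 to 32436 in MA 2. These means hid a difference in its first window, from 26000001 to 27000000, where every MA library lay below every young library. Its windows held only genes without a symbol in the list used here.

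Inside the windows, 1 kb bins were fuller than those of the other interior windows at the median as well as at the peaks. This follows in part from the choice of the windows by their count. The median 1 kb bin held 18.3 scaled fragments in the densest interior windows and 5.57 in the other interior windows, a ratio of 3.28, while the ratio at the 99th percentile of bins was 1.69. Bins above the genome mean of 17.6 made up 51.0% of the bins of the dense windows and 21.1% of the others. Bins above 100 made up 3.22% and 0.377%, and 11.0% of the bins of the densest end windows. A median of 5.0% of the bins of a dense window had no fragment in any library, against 9.8% in the other interior windows and 7.55% in the densest end windows. In the middle dense window the 10 fullest bins held 5.36% of the fragments, against 7.85% in the middle one of the other interior windows. That share rises where a window holds few fragments in all, so it does not show how broad the dense windows are.

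Among the 200, 16 windows were of another kind. In these windows over 10% of the fragments lay in the 10 densest 1 kb bins, with shares from 14.3% upwards, whereas none of the other 184 passed 7.68%. The division was made after the values were seen. These 16 piled windows, as they are called below, held 15.9% to 17.8% of the fragments of the 200 windows, depending on the library. The limit of 10% does not compare sets of unlike density, since few fragments in all are enough to pass it in a sparse window, and 251 of the other 1388 interior windows (18.1%) did. Bins of 1 kb with a mean above 1000 scaled fragments numbered 52 in the 200 windows, 43 in the 200 densest end windows and 11 in the other 1388 interior windows. Such bins also raise the count by which the dense windows were chosen.

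**Figure D2:**
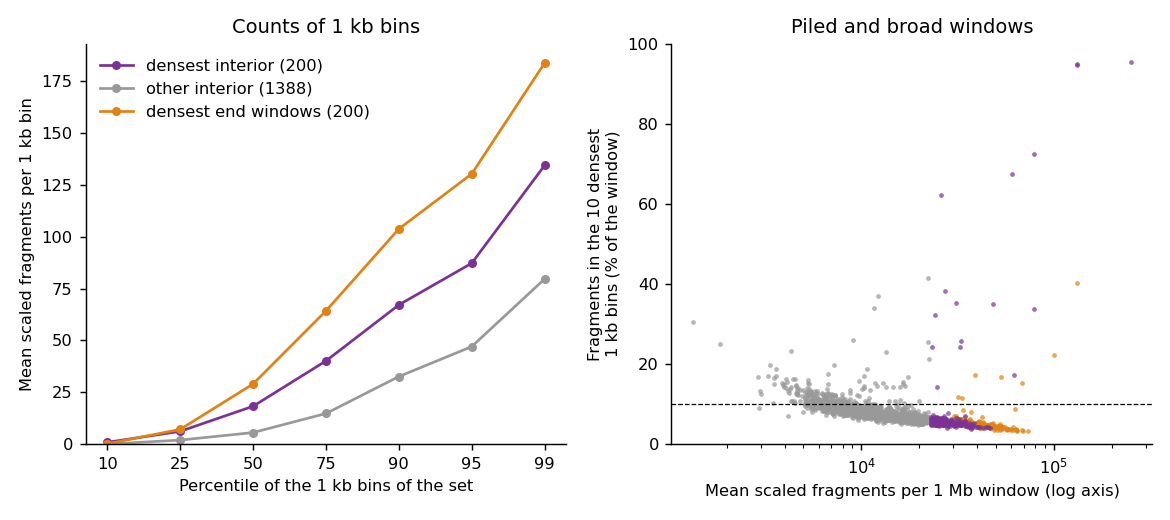
Left, mean scaled fragments per 1 kb bin (y axis) at percentiles of the bins (x axis) of the 200 densest interior windows, the other 1388 interior windows and the 200 densest end windows. Right, the percent of a window's fragments in its 10 densest bins (y axis) against its mean scaled fragments (x axis, log scale), 1 point per window, with the dashed line at 10%. The 16 piled windows of the densest interior set stand above the line, and its other 184 windows stay at or under 7.68%.

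The highest counts of the set belonged to piled windows. The first, on chromosome 16 from 32000001 to 33000000, had 271244, 268269 and 294557 scaled fragments for MA against 259379, 193152 and 216134 for Young. All 3 MA libraries lay above all 3 young libraries there, and the log2 difference was 0.33 (SE 0.98, limma adjusted p = 0.95). The limma SE also draws on the spread of other windows, so this p does not measure the spread of these libraries alone. In this window 95.6% of the fragments lay in 10 bins, and the median bin held 5.65, a value near that of ordinary interior windows.

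The second window, on chromosome 1 from 94000001 to 95000000, holds MYO6, an actin motor that moves towards the minus end of filaments. It had 144084, 144006 and 110270 scaled fragments for MA against 120447, 127338 and 148725 for Young, and 94.9% of its fragments lay in 10 bins. The third, on chromosome 9 from 15000001 to 16000000, had 136283, 151868 and 123460 for MA against 116857, 117057 and 147819 for Young. A single 1 kb bin, from 15226001 to 15227000, held 92.6% of the fragments of that window. The age groups overlapped in both windows.

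Ranks 4 to 8 were also piled. The window on chromosome 3 from 35000001 to 36000000, with NARFL, a protein of iron-sulfur cluster assembly, had 57694 in MA 3 and 71256 in Young 1, and 83328 to 87821 in the other 4 libraries. On chromosome 2 from 86000001 to 87000000, MA 3 had 47947 and Young 1 had 65519, against 84447 to 94866 in the others. These libraries were lower than the rest of their own group in both windows.

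On chromosome 12 from 23000001 to 24000000, the window of the histone acetyltransferase gene MYST2, the libraries ran from 54234 in MA 3 to 67981 in MA 1. On chromosome 16 from 47000001 to 48000000 they ran from 43943 in MA 3 to 70135 in Young 3, and on chromosome 10 from 18000001 to 19000000 from 43619 in MA 2 to 56775 in MA 1. In none of these 3 windows did the age groups separate.

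The first windows in the order without a pile were ranks 9 and 10. The window on chromosome 6 from 47000001 to 48000000 had 46248, 46680 and 44153 scaled fragments for MA against 46212, 48541 and 48373 for Young, and 3.97% of its fragments lay in 10 bins. It holds PGD, the phosphogluconate dehydrogenase of the pentose phosphate pathway, and UBE4B, a ubiquitin ligase. The window on chromosome 10 from 24000001 to 25000000 had 46206, 46701 and 41744 for MA against 44077, 45413 and 47535 for Young. Its genes include LMOD1, an actin nucleator of smooth muscle, PPP1R12B, a regulatory subunit of myosin phosphatase, KDM5B, a histone H3 lysine 4 demethylase, IPO9, a nuclear import receptor, KLHL12, a ubiquitin ligase adaptor, and NAV1, a neuron navigator protein. In both windows the median 1 kb bin held about 38 fragments (38.5 and 37.6), well above the 17.98 of the middle dense window.

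**Figure D3:**
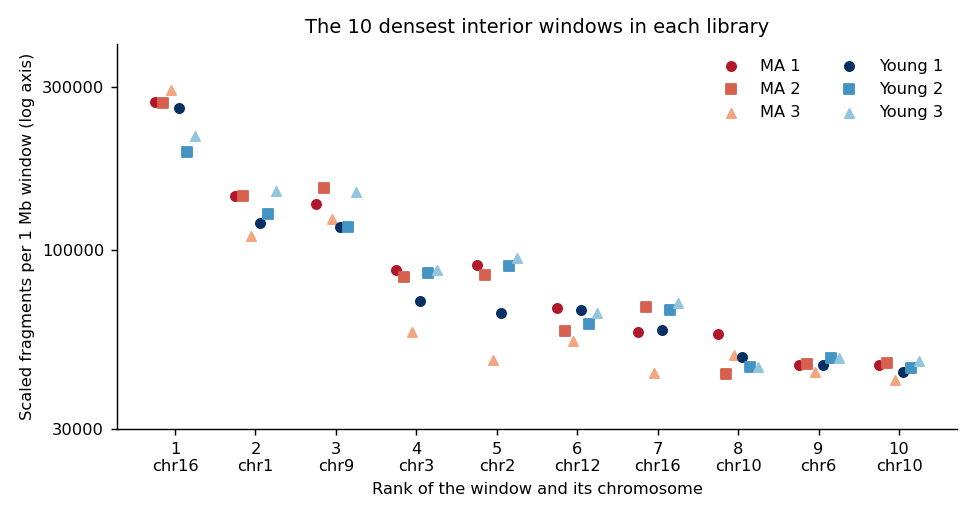
Scaled fragments per 1 Mb window (y axis, log scale) of the 10 densest interior windows in each of the 6 libraries (points), by rank and chromosome (x axis). The first window ran from 193152 in Young 2 to 294557 in MA 3, and the windows of ranks 9 and 10 had their libraries close together between 41744 and 48541.

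The piled windows differed from the rest in how often fragments repeated. These windows are defined by fragments crowded into few bins, where identical intervals can recur more easily, and the part of crowding was not tested. Repeats of an interval already counted in the same library made up 31.9% to 36.5% of the pooled fragments of the 16 windows. They made up 0.290% to 0.489% of those of the other 184 and 0.368% to 0.611% of those of the other interior windows. In the third window the share was 83.1% to 86.7%. In the second it was 55.0% to 64.0%, and in the fifth 41.2% to 48.9%. The repeated intervals did not mark every pile, because 2 of the 16 windows had under 1% of them in every library. The piled windows of ranks 8 and 41 had 1.01% to 3.03% and 1.02% to 2.24%, while single windows of the other 184 reached 2.07%. Without their 10 densest bins, 5 of the 16 would still have reached the count of rank 200.

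The 10 densest bins of a piled window lay within 25 kb of each other in 1 of the 16 windows, that of rank 5. A wider span does not show that a pile was scattered, since in several other windows some of these bins adjoined each other. In the window of rank 3 the bins spanned 804 kb, but 1 bin held 92.6% of the fragments and all 10 held 94.7%. Libraries varied more in piled windows than in the others. The highest library exceeded the lowest by a median of 1.30 times in the 16 windows and of 1.09 times in the other 184.

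The widest range belonged to a piled window of rank 122, on chromosome 11 from 34000001 to 35000000, which is named here after its values were seen. It had 26797, 30890 and 7146 scaled fragments in MA 1, MA 2 and MA 3, and 11653, 39872 and 38787 in Young 1, Young 2 and Young 3. MA 3 and Young 1 stood below the limit of the set, and each of the other 4 libraries above it. In its densest bin, from 34899001 to 34900000, the counts were 9695, 14217 and 1029 for MA against 2972, 15723 and 15994 for Young.

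Which windows were densest varied little between libraries. Of the 200 windows, 169 were among the 200 densest interior windows of every single library, and ranking by 1 library alone gave 187 to 194 of them. Each library is part of the mean that chose the 200, so these numbers are high in part by the choice itself. The age groups share no library. Ranking by the 3 MA libraries and by the 3 young libraries chose 190 windows in common, and the windows chosen in the young pigs stood no lower than rank 254 in the MA pigs. The highest library exceeded the lowest by less than 1.1 times in 59.0% of the densest interior windows, 36.2% of the other interior windows and 45.0% of the densest end windows. The ratio reached 1.84 in a window without a pile and 5.58 in a piled one. Ranking by the median 1 kb bin in place of the sum changed more, and gave 178 of the 200. It returned 173 of the 184 windows without a pile and 5 of the 16 piled windows.

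MA 3 and Young 1 stood apart from the other libraries in a way that changed with the density of the windows. In the densest end windows, MA 3 and Young 1 lay below the mean of the 6 libraries (by a log2 deviation of -0.127 and -0.079), and in the other interior windows they lay above it (0.058 and 0.057). The densest interior windows sat where these lines cross. Here the mean deviations of the 6 libraries ran only from -0.014 in Young 2 to 0.022 in MA 2. Single windows still set MA 3 apart, which was the highest library in 98 and the lowest in 39 of the 184 windows without a pile. The same did not hold for Young 1, which was the highest in 16 and the lowest in 10. Young 2 and Young 3 were the lowest in 47 and 67. The widest ranges without a pile, named after their values were seen, had both MA 3 and Young 1 low. On chromosome 6 from 43000001 to 44000000 (rank 13) MA 3 had 27185 and Young 1 had 33607 scaled fragments, against 43090 to 49982 in the others. On chromosome 3 from 36000001 to 37000000 (rank 11) the counts of 30083 in MA 3 and 36507 in Young 1 stood below 45898 to 53127 in the other libraries.

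**Figure D4:**
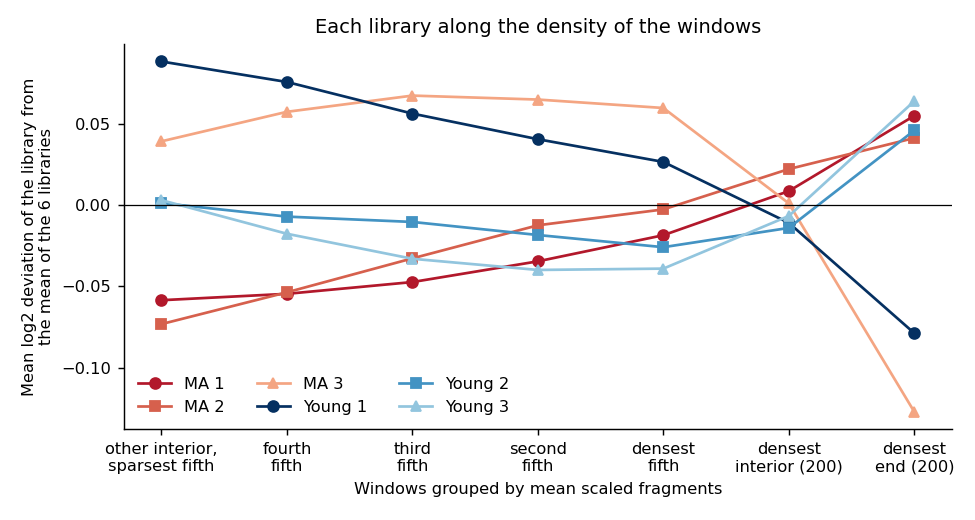
Mean deviation of each library from the mean of the 6 libraries, on the log2 scale (y axis), for interior windows grouped by density and for the 200 densest end windows (x axis). The lines of MA 3 and Young 1 fell from above 0 in sparse windows to -0.127 and -0.079 in the densest end windows, and all 6 lines came between -0.014 and 0.022 in the densest interior windows.

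Genes were placed by a list of the study that pairs genes with age-associated regions of the same build. A part of that list was used, and it serves only as a set of landmarks. It put 218 of its 1259 genes in the densest interior windows, in 105 of the 200, and 555 genes in 375 of the 1388 other interior windows. Because the list names genes for a difference by age in these animals, its counts do not measure gene density.

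Landmark genes were grouped by the first letters of their symbols, so a gene need not have the function that names its group. Those in the windows included 3 of 18 of the sarcomere and myosin group, namely MYO6, MYO19, a mitochondrial motor, and MYO1D, a membrane-associated myosin. The ion channels were KCNA7 and KCNT2, a sodium-activated potassium channel, 2 of 13. Zinc finger and homeobox genes were ZNF384, ZNF516, ZNF618 and ZNF646, 4 of 15. The other groups were COL27A1, a fibrillar collagen, of 10 collagens and proteases, RABGGTA and RAPGEFL1 of 17 GTPase regulators, and PRKAG3, the muscle-specific regulatory subunit of AMP-activated protein kinase, of 15 protein kinases.

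The age groups overlapped in most windows of these genes. Since the list was itself drawn from differences by age in these animals, the values below are descriptions and no independent support for it. The window of PRKAG3, on chromosome 15 from 113000001 to 114000000, the 1 dense window of that chromosome, had 23513 ± 685 (SD, n = 3) scaled fragments for MA against 22740 ± 438 (SD, n = 3) for Young. The window of KCNA7, FGF21 and HRC had 39115 ± 2364 (SD, n = 3) and 40008 ± 2043 (SD, n = 3). That of COL27A1 and ZNF618, on chromosome 1 from 267000001 to 268000000, had 26043 ± 575 (SD, n = 3) and 24501 ± 476 (SD, n = 3), without overlap, and that of ZNF384, on chromosome 5 from 60000001 to 61000000, 30633 ± 183 (SD, n = 3) and 29634 ± 243 (SD, n = 3), also without overlap. None of these differences passed the test across all windows, which is described next.

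The comparison of MA with young pigs asked whether methylation of these windows differs with age. limma, fitted on log2(scaled count + 1) over all 2128 windows, called 0 of the 200 dense windows and 0% of all windows at a Benjamini-Hochberg adjusted p below 0.01, and also 0% at 0.05. At an unadjusted limma p below 0.05 there were 23 dense windows (11.5%), against 103 windows (4.84%) of all. The smallest limma adjusted p of a dense window was 0.565. Without MA 3 the fit called 14 windows of all, and without MA 1 it called 2, with 1 dense window in either case, that on chromosome 3 from 19000001 to 20000000. In bulk muscle, a change in the mix of cell types and a change of methylation within a cell type cannot be told apart.

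In 48 of the 200 dense windows (24.0%) every MA library lay on the same side of every young library, where 10.5% of all windows did. The MA pigs were higher in 42 of them (21.0%, against 5.64% of all windows) and lower in 6 (3.0%, against 4.89%). The differences were small, with a median log2 difference of 0.070 among the 42. They were spread over 14 chromosomes, and 2 of the 42 and 0 of the 6 were piled windows. After a loess of each library on average count, the number was 44, or 22.0% against 23.9% of all windows, with 25 higher and 19 lower in the MA pigs, so the excess over the background and most of the imbalance were absent under that scaling. Median-of-ratios size factors gave 73 (36.5%, against 33.5% of all windows), 69 higher and 4 lower. With a library left out the groups separate more easily, in all windows as in the dense ones. Leaving out Young 1 gave 107 (53.5%, against 30.3%) and leaving out MA 1 gave 78 (39.0%, against 16.9%). Without MA 3 the number was 62 (31.0%), which was below the 39.8% of all windows.

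Over all 200 windows the median log2 difference was 0.028, and 73.0% of the differences were above 0, beside a median of -0.005 and 46.1% for all windows. After the loess the median was 0.003 and 51.5% were above 0. Among interior windows the difference followed density. In the densest of 5 equal groups of the other interior windows the median was 0.024 and 72.7% were above 0, and in the sparsest group it was -0.065 with 8.66% above 0. The densest of these groups thus had nearly the same shift as the 200 windows. The order did not extend to the ends, since the 200 densest end windows, with higher counts, had a median of -0.005 and 46.5% above 0.

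**Figure D5:**
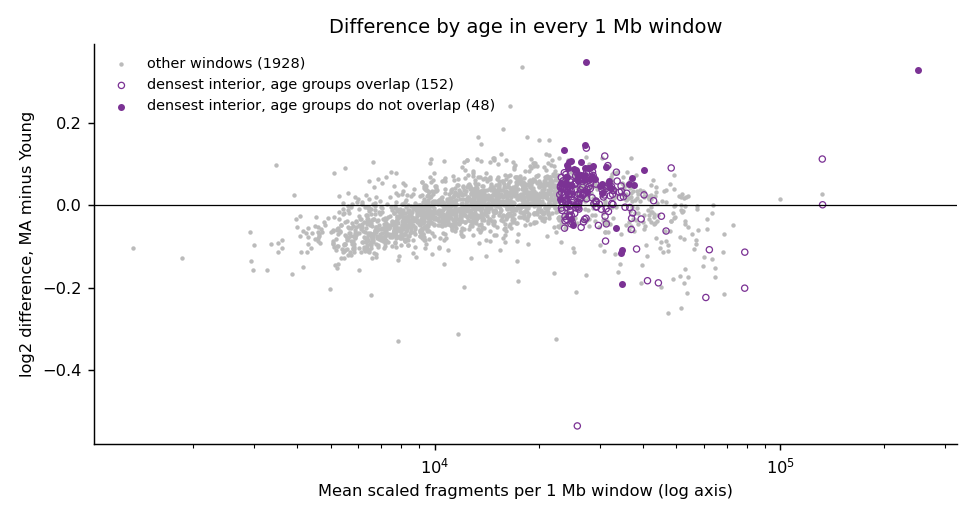
log2 difference between MA and young pigs (y axis) against the mean scaled fragments (x axis, log scale) of all 2128 windows of 1 Mb, with the 200 densest interior windows in purple, filled where the age groups do not overlap (48) and open where they do (152). Of the filled points, 42 lie above 0 and 6 below, and the lowest of the purple open points is the piled window of chromosome 11.

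Averaged over the 200 windows on the log2 scale, a measure added after the data were seen, the level was 14.844, 14.858 and 14.836 for MA against 14.824, 14.821 and 14.829 for Young. The groups did not overlap, and the difference of 0.021 had a two-sided exact permutation p of 0.1, the smallest that 3 libraries against 3 allow. With median-of-ratios size factors the difference was 0.023 (exact permutation p = 0.5).

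The share of the fragments of all 2128 windows that fell in the 200 windows was 17.0%, 17.1% and 16.6% for MA against 16.5%, 16.5% and 16.7% for Young. MA 3 lay below Young 3, so the groups overlapped, and the log2 ratio of 0.027 had an exact permutation p of 0.2. In the 184 windows without a pile the shares were 13.94%, 14.04% and 13.99% against 13.80%, 13.74% and 13.79%, which did not overlap (log2 ratio 0.022, exact permutation p = 0.1). Relative to the other interior windows, the dense windows held 2.65 ± 0.127 (SD, n = 3) times as many fragments in the MA pigs and 2.59 ± 0.0886 (SD, n = 3) times in the young pigs (exact permutation p = 0.6). Relative to the densest end windows, the ratio was 0.748 ± 0.050 (SD, n = 3) and 0.721 ± 0.044 (SD, n = 3) (exact permutation p = 0.5). Both differences were smaller than the spread between libraries and rested on single ones. The log2 difference of the ratio to other interior windows, 0.028, was 0.0021 without Young 1, 0.0075 without MA 1, 0.0084 without MA 2, 0.069 without MA 3 and 0.051 without Young 3. That of the ratio to end windows, 0.053, was 0.102 without Young 1, 0.088 without MA 1, -0.0013 without MA 3, 0.027 without Young 2 and 0.029 without Young 3.

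The dense windows with the smallest limma p among those higher in the MA pigs were on chromosomes 14, 3 and 9. The window on chromosome 14 from 77000001 to 78000000 had 28024, 28614 and 29214 scaled fragments for MA against 26203, 25238 and 26061 for Young, a log2 difference of 0.15 (SE 0.032, limma adjusted p = 0.565). It holds CDH23, a cadherin of the tip links of hair cells, PSAP, the precursor of the lysosomal saposins, and C10orf54, an immune checkpoint receptor. That on chromosome 9 from 45000001 to 46000000, with the ubiquitin ligase gene RNF26, had 25309, 25625 and 26008 for MA against 24289, 23282 and 23830 for Young (log2 difference 0.11, limma adjusted p = 0.834).

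The window on chromosome 3 from 19000001 to 20000000 had a larger difference. It had 25675, 34899 and 31596 scaled fragments in MA 1, MA 2 and MA 3 and 24830, 23520 and 23519 in the young pigs, a log2 difference of 0.35 (SE 0.090, limma adjusted p = 0.829). MA 1 was close to the young pigs, and MA 2 and MA 3 stood apart from them. The window was piled, with 38.2% of its fragments in 10 bins, and its densest bin, from 19818001 to 19819000, held 1422, 3249 and 2650 for MA against 1243, 1165 and 1136 for Young. Its adjusted limma p was 0.00057 without MA 1 and 1.31e-05 without MA 3.

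Lower in the MA pigs were windows on chromosomes 3, 7 and 12. On chromosome 3 from 26000001 to 27000000 the counts were 31334, 34495 and 31575 for MA against 37160, 37226 and 36788 for Young, a log2 difference of -0.19 (SE 0.043, limma adjusted p = 0.565). Inside it, in the 10 kb from 26020001 to 26030000, chosen after its values were seen, the MA libraries had 792, 1473 and 623 scaled fragments and the young libraries 2328, 2229 and 2311, a log2 difference of -1.35 (limma adjusted p = 0.044 over all 10 kb windows).

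Another on chromosome 7 from 33000001 to 34000000, with DST, which encodes the cytoskeletal linker dystonin, had 32873, 32484 and 34052 for MA against 36003, 36257 and 35450 for Young (log2 difference -0.12, limma adjusted p = 0.834). That on chromosome 12 from 31000001 to 32000000, with MSI2, an RNA-binding protein of the Musashi family, had 33078, 33909 and 33814 and 36606, 35926 and 36161 (log2 difference -0.11, limma adjusted p = 0.834). In all 6 of these windows the age groups were separate, and in none did the difference pass the adjustment over all windows.

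At a finer scale, limma tested 192109 windows of 10 kb with a mean count of at least 10. It called 39 of them at an adjusted p below 0.01 (0.0203%), and 0 of the 19190 inside the dense windows, where 2269 (11.8%) had an unadjusted limma p below 0.05, against 9.28% of all. At 0.05 it called 342 (0.178%), of which 34 lay inside the dense windows (0.177%), a share close to the background. Of these 34, 4 were higher and 30 lower in the MA pigs, while over all windows 127 were higher and 215 lower. The 10 kb windows inside the dense windows had the opposite balance as a whole, with a median log2 difference of 0.026 and no overlap of the age groups in 11.6% that were higher and 7.56% that were lower in the MA pigs, beside 7.00% and 8.05% of all 10 kb windows. The number at 0.01 rested on single libraries: without MA 3 it was 228, with 11 higher and 11 lower inside the dense windows, while without Young 2 it was 7 and without Young 3 it was 4. It was 19 with median-of-ratios size factors.

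Of the 10 kb windows inside the dense windows, the smallest p among those higher in the MA pigs came on chromosome 16 from 48430001 to 48440000, in the megabase of BOD1, a protein of chromosome biorientation. It held 271, 231 and 293 scaled fragments for MA against 143, 141 and 151 for Young (log2 difference 0.86, SE 0.11, limma adjusted p = 0.010). The adjacent 10 kb windows had a mean of 170 for MA against 142 for Young. The next were on chromosome 3, from 63980001 to 63990000, with 138, 164 and 199 against 81.2, 78.2 and 93.3 (log2 difference 0.97, limma adjusted p = 0.025), and from 90930001 to 90940000, with 201, 179 and 180 against 128, 96.0 and 88.8 (log2 difference 0.85, limma adjusted p = 0.034). Their adjacent windows had 238 for MA against 235 for Young, and 147 against 134.

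Among those lower in the MA pigs, the first was on chromosome 4 from 34980001 to 34990000, in the megabase of ODF1, a protein of the outer dense fibres of sperm tails. It held 122, 127 and 128 scaled fragments for MA against 216, 209 and 224 for Young (log2 difference -0.78, SE 0.097, limma adjusted p = 0.010). The adjacent windows had 152.2 for MA and 152.1 for Young. On chromosome 18 from 15890001 to 15900000 the values were 187, 178 and 187 against 285, 281 and 295 (log2 difference -0.64, limma adjusted p = 0.017), and on chromosome 3 from 54490001 to 54500000 they were 168, 192 and 191 against 298, 292 and 285 (log2 difference -0.67, limma adjusted p = 0.018). The adjacent windows were lower in the MA pigs as well, at 111 against 162 on chromosome 18 and at 142 against 192 on chromosome 3. All 6 of these small windows lost the 0.05 threshold without at least 1 of the libraries, with their highest limma adjusted p from 0.0995 to 0.251.

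The length of the fragments, which the choice of windows did not use, differed slightly. The most frequent length was 249 bp in every library. It made up 14.2% to 15.3% of the intervals in the dense windows and 14.8% to 16.5% in the other interior windows. Why a single length was so frequent was not tested. The mean interval was longer in the dense windows than in the other interior windows in 6 of 6 libraries, by 1.17 ± 0.258 bp (SD, n = 6; p = 0.031 by a two-sided exact permutation of signs, as small as 6 libraries permit). Without the intervals of the most frequent length the difference was 1.23 bp (exact sign-flip p = 0.031). Without the piled windows the difference was 0.957 ± 0.502 bp (SD, n = 6; exact sign-flip p = 0.031), and with the median length in place of the mean it was 0.5 bp (exact sign-flip p = 0.25). Against the densest end windows, the dense interior windows were longer in 5 of 6 libraries, by 1.06 ± 0.856 bp (SD, n = 6; exact sign-flip p = 0.0625), and without the piled windows in 6 of 6 (0.846 bp, exact sign-flip p = 0.031).

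By age, the fragments in the dense windows averaged 265, 253 and 254 bp for MA against 265, 272 and 263 bp for Young (exact permutation p = 0.2). MA 1 overlapped the young libraries. Over the whole libraries the means were 256 ± 6.30 bp (SD, n = 3) for MA against 266 ± 4.78 bp (SD, n = 3) for Young. The part of fragment length in the counts was not tested.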

How the data were processed

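MeDIP-seq libraries of 6 pigs were used, 1 per animal, grouped by the sample labels. The authors filtered read pairs, aligned them to Sscrofa9.2 with SOAP2 and treated reads at the same location as duplicates. They deposited the start and end position of fragments, with no counts and no normalization. The intervals span 50 to 550 bp, and all were used, including identical ones. Identical intervals remained in the deposited positions although the methods describe merging reads at the same location. The midpoint of each placed it in windows of 1 Mb, 10 kb and 1 kb. Their counts were divided by the library total and multiplied by the mean total. Effects of depth that this scaling leaves in the counts were not tested. The 200 windows, the gene groups and the tests were chosen with earlier results of these data known.

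limma 3.58.1 in R 4.3.3 (lmFit, eBayes with trend) was run on log2(scaled count + 1) over all windows averaging 10 or more fragments, and calls were made at a Benjamini-Hochberg adjusted p under 0.01. It was also run on simulated data, in which the altered windows changed by more than any dense 1 Mb window differed by age here. That run does not bear on differences as small as those of the dense windows. Single values were compared by two-sided exact permutation over the 20 assignments of libraries, and window sets within libraries by exact sign flips, in Python 3.11.15 with numpy 2.4.6. The p-values rest on the spread between libraries, 1 per animal, and those of limma also draw on the spread of other windows. Differences between animals and between library preparations cannot be told apart.

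Windows are named by rank (the 10 densest, and 3 either side of the limit), as the 3 longest runs (equal lengths ordered by mean), and as the 3 smallest limma p in each direction at 1 Mb and 10 kb. Genes are named where the study's list, used in part, places them in such a window or in a symbol group. The solute carrier group is not reported here. No genome of the build was at hand, so base composition, CpG content and sequences were not analysed.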

Additional observations from a re-analysis of the deposited data

How the results depend on the processing

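The count of 0 dense windows called at 1 Mb held in 15 alternatives, all those of scaling, pseudocount, filter, threshold, number of windows and distance from the ends among them. Leaving out each library in turn gave 0 to 14 calls over all windows and 0 to 1 among the dense windows. At 10 kb the 39 calls became 342 at a threshold of 0.05, 19 with median-of-ratios size factors and 4 to 228 without single libraries. The 0 inside the dense windows became 34 at 0.05, 3 after the loess, 2 with a pseudocount of 10 and 0 to 22 without single libraries. The cause was not tested. The 48 windows without overlap became 73 with median-of-ratios size factors, while the share over all windows went from 10.5% to 33.5%. Without single libraries, where the groups separate more easily, the number was 51 to 107, and the share over all windows was 12.5% to 39.8%. With 100 windows taken the number without overlap was 29 of 100, a higher share than 48 of 200. Without single libraries the log2 age difference was 0.020 to 0.038 for the share, 0.0021 to 0.069 for the ratio to other interior windows and -0.0013 to 0.102 for the ratio to end windows. Size factors cannot change these values, the loess was not run for them, and 3 libraries against 3 cannot pass 0.05. The length difference against other interior windows was 0.5 bp by the median and 1.12 to 1.22 bp without single libraries, with 5 of which an exact sign-flip test cannot fall below 0.0625. Against the densest end windows it passed 0.05 with identical intervals counted once (1.30 bp), without the commonest length (1.47 bp), with 100 windows (1.85 bp), at 10 Mb (1.22 bp) and 20 Mb (1.86 bp) from the ends and without piled windows (0.846 bp), the last of these chosen after seeing the data. It did not with 400 windows (0.669 bp) or without 1 kb bins above 100 (0.527 bp), and by the median length it was -0.333 bp.

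The labels do not say that the replicate numbers pair the animals, and the main fit did not use them as pairs. Same-numbered libraries had deviations that correlated at -0.847, 0.678 and -0.887 over windows, which cannot settle how the animals were matched. With the number as a replicate block, limma called 6 windows of 1 Mb, 2 of them dense (on chromosomes 3 and 11, ranks 94 and 122), and 20 windows of 10 kb.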

Other observations

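Chromosome X was not part of the set. Of its 95 interior windows of 1 Mb, 10 reached the count of the autosomal window of rank 200. The median of the 95 was 8900 scaled fragments, and the highest, from 108000001 to 109000000, had 31446, 31262 and 31883 for MA against 30739, 30333 and 29924 for Young, without overlap.

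Moving the windows by 500 kb and choosing 200 again gave 170 that overlapped one of the windows described here. Leaving out 1 kb bins with a mean above 100 before ranking gave 180 of the 200, among them 175 of the 184 windows without a pile and 5 of the 16 piled ones.

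In the 10 kb on chromosome 9 from 98020001 to 98030000, inside the dense window of rank 150 and chosen after its values were seen, the MA libraries had 29.5, 20.6 and 21.5 scaled fragments and the young libraries 59.3, 57.4 and 72.8 (log2 difference -1.38, limma adjusted p = 0.025).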
